A study of Homo sapiens with 2 samples.

Results

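The LY6 family genes of the human 8q24 region were examined in HT1080, a line of human fibrosarcoma cells, after 24 h on a coating of BSA or of rLCC111. The set holds 8 genes of the 18417 measured, namely LY6K, LY6E, LY6D, LY6H, LYPD2, SLURP1, PSCA and GML, and was chosen by name with the difference between the coatings already known. rLCC111 is a recombinant trimer of the coiled-coil parts of the mouse laminin alpha1, beta1 and gamma1 chains, and BSA served as the control coating. Both groups were of the same line and the same time point, in medium with fetal calf serum per the labels. One array was hybridised per coating, so no difference has a replicate check and no test or p-value is given. A level is the deposited log2 value of the array sequence that names a gene, and a difference is the level on rLCC111 less the level on BSA.

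Proteins of the LY6 and urokinase receptor (uPAR) family are small and rich in cysteines, whose disulphide bonds hold a fold of finger-like loops. Most are tied to the outer face of the cell membrane by a glycosylphosphatidylinositol (GPI) anchor, and a few are secreted. LY6K is known as a cancer-testis antigen, a protein of testis that also appears in tumours, and takes part in sperm function in the mouse. Several of the other genes of the region are better known from epithelia, brain or interferon responses.

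The LY6K signal was 10.25 log2 on BSA and 9.05 log2 on rLCC111. The difference of -1.21 is a fold of 0.433, so that the rLCC111 array held 43.3% of the signal of the BSA array. Of the 8 genes, 1 was past 2-fold, LY6K on the lower side, and 0 on the higher side. Past 2-fold on the lower side were 0.0869% of all genes, on the higher side 0.239% and on either side 0.326%, and nothing is read from the comparison with these shares because the contrast was known when the set was chosen. LY6K stood at place 13 of 18417 counted from the lowest difference, next to CCBE1, a secreted protein of lymphatic vessel growth, with a fold of 0.432.

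The second surface protein gene of the set with a high level was LY6E, which is induced by interferon and known for its part in the entry of viruses. Its level was 10.03 on BSA and 9.87 on rLCC111, which is a difference of -0.16 and a fold of 0.895. A difference at least this large in size is common, since 28.3% of all genes had a larger one. The LY6K difference was therefore lower than that of LY6E by 1.05 log2.

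**Figure D1:**
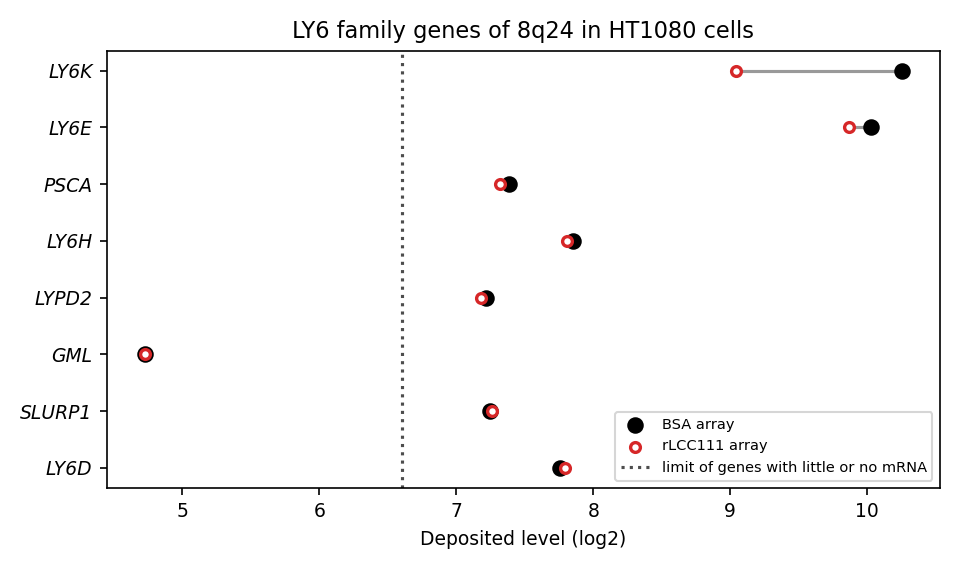
Deposited log2 level (horizontal) of each of the 8 LY6 genes on the BSA array (black) and the rLCC111 array (red circles), 1 array per coating, with a dotted line at the limit of 6.61. LY6K moves from 10.25 to 9.05, LY6E from 10.03 to 9.87, and the points of the other genes lie on or beside each other.

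PSCA, a GPI-anchored antigen first known from prostate, was at 7.39 on BSA and 7.32 on rLCC111. LY6H, known from brain, was at 7.85 and 7.81, and LYPD2, known from epithelia, at 7.21 and 7.18. Each of these genes was within 0.07 log2 of its level on BSA, below it by a little on the rLCC111 array.

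LY6D, a surface protein of keratinocytes and early B cells, measured 7.76 on BSA and 7.79 on rLCC111, with a difference of 0.04 that ranged from -0.05 to 0.04 under other scalings of the arrays. SLURP1 is the secreted member of the set, a keratinocyte protein that modulates nicotinic acetylcholine receptors. It was at 7.25 on BSA and 7.26 on rLCC111, and its difference of 0.01 also changed sign, to -0.08 at the lowest. GML, a GPI-anchored protein known as a p53-induced gene, had the same value of 4.73 on both arrays, to every digit deposited.

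Taken without LY6K, the 7 genes had differences from -0.16 to 0.04, with a median of -0.04 and an SD of 0.065 across genes, against a median of 0.00 and an SD of 0.20 over all genes. Of the 7, 4 were lower on rLCC111, where 46.6% of all genes were, 2 were higher and 1 was equal. LY6K lay below the median of the 7 by 1.17 log2. It was chosen with its difference known and then left out, so nothing is read from this distance or from the smaller SD. With median centring or quantile normalization of the arrays all 8 genes had a difference below 0, but so did 73.6% and 65.8% of all genes. After removal of a lowess trend 7 of the 8 did, and 55.8% of all genes. These counts thus follow the scaling and are not read as a fall of the family. LY6K remained the gene of the set at least 2-fold lower.

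Levels were set against those of 399 olfactory, taste, vomeronasal and trace amine receptor genes, which stand for genes that a fibrosarcoma line hardly transcribes. The limit used for such genes was 6.61, the 95th percentile over these receptors of the mean of both arrays. Some receptor sequences were bright, up to 11.48 on BSA, and 2 were at least 2-fold higher on rLCC111. The limit is therefore a guide to level and does not show that a gene is silent or transcribed. Sequences differ in how brightly their probes respond, so levels were not ranked between genes. LY6K and LY6E were above the limit by 3.65 and 3.42 log2 on BSA. LY6D, LY6H, LYPD2, SLURP1 and PSCA exceeded it on both arrays by 0.57 to 1.24 log2, and GML was 1.88 log2 below it. With the limit at the 99th percentile, 7.54, the genes above it on both arrays were LY6K, LY6E, LY6D and LY6H. The differences of LYPD2, SLURP1 and PSCA were thus measured close to the limit, and that of GML below it.

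The difference of each gene was also placed among the 500 genes of nearest mean level. For LY6K these had mean levels from 9.56 to 9.74, a median difference of -0.01 and an SD of 0.22, and the middle 95% of them ran from -0.38 to 0.41. None of the 500 had a difference as low as that of LY6K, and 1 had a larger difference in size, on the higher side. LY6K was chosen with its difference known, so its place among them follows from the choice and nothing is read from it. The lowest of the 500 was ASNS, asparagine synthetase, at -0.80. Among the 500 genes nearest to LY6E in level, 173 had a larger difference in size. For the other 6 genes this number ran from 314 for PSCA to 457 for SLURP1.

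**Figure D2:**
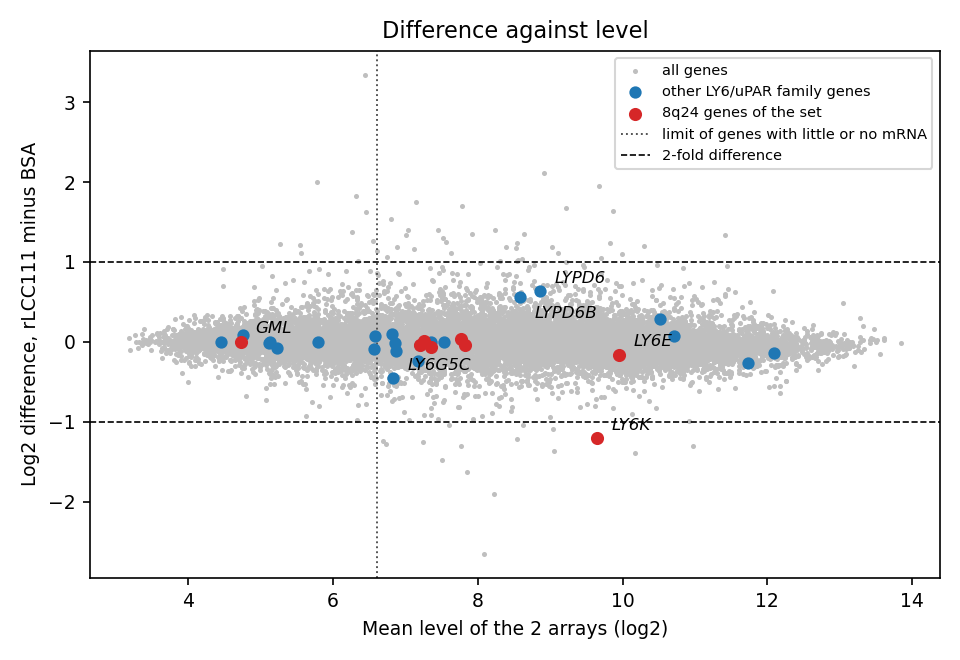
Log2 difference, rLCC111 minus BSA (vertical), against the mean log2 level of the 2 arrays (horizontal) for 18417 genes (grey), the 8 LY6 genes of 8q24 (red) and 22 other family genes (blue); the dashed lines mark 2-fold and the dotted line the limit of 6.61. LY6K, at -1.21, lies below the lower dashed line, and the other red points lie between -0.16 and 0.04.

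The 5 genes whose array signals came nearest to those of LY6K were found by the Euclidean distance over the 2 log2 levels. They were ASNS at a distance of 0.29, the small nucleolar RNA gene SNORA22 at 0.35, SESN2, a stress-induced regulator of mTORC1, at 0.36, LYAR, a nucleolar protein, at 0.37, and PREX1, an activator of Rac, at 0.39. Their folds, from 0.575 to 0.622, were all nearer to 1 than that of LY6K. The distance compares signals of different probes on 2 arrays, so it does not show that the genes have like amounts of mRNA.

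The genes beside LY6K on the chromosome did not share its difference. In the RefSeq order of GRCh38.p14, the measured genes next to LY6K are PSCA, described above, on one side and THEM6, a gene outside the family, on the other. THEM6 measured 8.59 on BSA and 8.60 on rLCC111, with a difference of 0.01 that fell below 0 after median centring. Among the 15 measured genes on each side, 30 in all, none was 2-fold different in either direction, and the median difference was 0.00. Over all genes 0.326% were 2-fold different, a share so small that the count of 0 says nothing particular of the region. Of the 30, 13 were higher on rLCC111, 13 lower and 4 equal, and 25 had at least 1 array above the limit.

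The gene of the neighbourhood with the largest difference was TRAPPC9, a subunit of a vesicle tethering complex, which went from 8.46 on BSA to 9.13 on rLCC111, or 1.59-fold. It was the 1 neighbour past 1.5-fold in either direction, where 1.08% of all genes were past 1.5-fold on the higher side and 0.543% on the lower side. SLC45A4, a transporter gene, had the lowest value of the neighbours, at -0.33. Under other scalings or choices of sequence its difference was -0.15 at the highest, so this place depends on the setting. Of 639 measured genes on chromosome 8, LY6K and TMEM71 were past 2-fold on the lower side, TMEM71 with a fold of 0.424, and 1 gene on the higher side, ATP6V0D2, which encodes a proton pump subunit. TMEM71 was at 7.31 on BSA and 6.07 on rLCC111, and ATP6V0D2 at 4.77 and 6.77. Each of these genes thus had 1 array below the limit, while LY6K was above it on both. Over all genes the shares past 2-fold were 0.0869% on the lower side and 0.239% on the higher side. The median over chromosome 8 was 0.00.

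**Figure D3:**
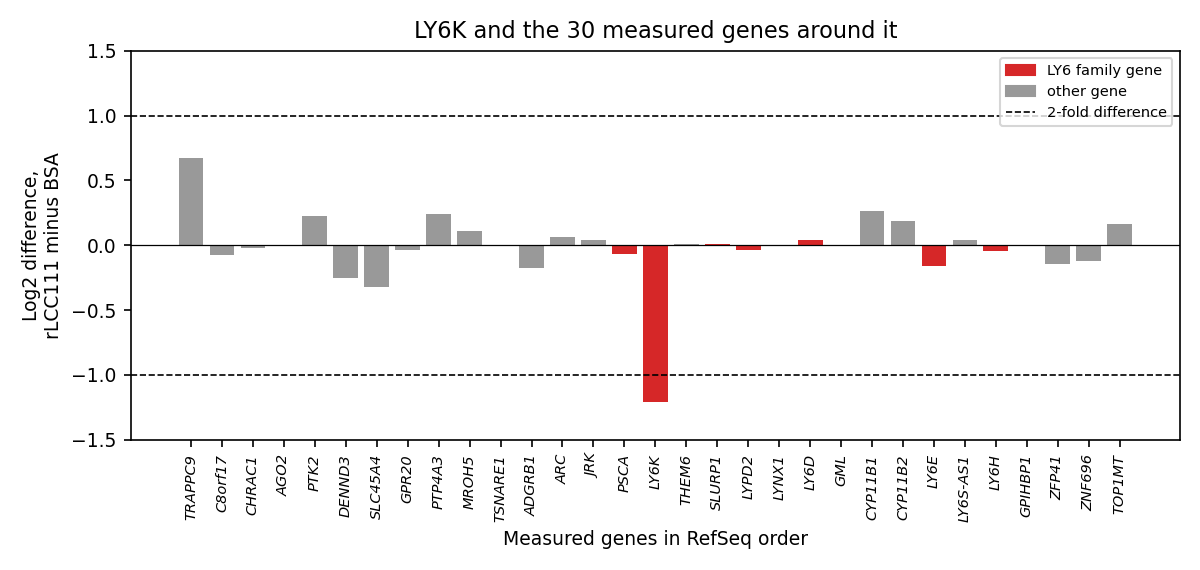
Log2 difference, rLCC111 minus BSA (bars), of LY6K and the 15 measured genes on each side of it in RefSeq order, with LY6 family genes in red, other genes in grey and dashed lines at 2-fold. LY6K, at -1.21, is the 1 bar past a dashed line, and the largest bar of the others is that of TRAPPC9, at 0.67.

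A further pair of family genes of the region outside the set, LYNX1 and GPIHBP1, had the same deposited value on both arrays. LYNX1, which modulates nicotinic receptors in brain, was at 7.54, and GPIHBP1, which carries lipoprotein lipase across the capillary wall, was at 7.36. The sequence named LYNX1 also holds transcripts that RefSeq now assigns to SLURP2, so it measures both genes together. All 9 family genes of chromosome 8 other than LY6K were within 0.16 log2 of their BSA level.

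Equal values were not particular to these genes. Over all 18417 genes 7.19% had the same deposited value on both arrays, and among the sensory receptor genes 20.1% did. In the whole measured family of 30 genes these were GML, LYNX1, GPIHBP1, LYPD4, TEX101 and PATE2, 6 in all. TEX101, the testis protein known as a partner of LY6K in sperm, was at 5.13 on both arrays, below the limit. A difference of 0.00 for such a gene is a property of the deposited numbers, and how RMA came to it was not tested.

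Beyond the 8 genes, 22 other genes of the family were measured, LYNX1 and GPIHBP1 of chromosome 8 among them. None of the 22 was at least 2-fold different. Their median difference was 0.00, equal to that of all genes, with 7 above 0, 10 below 0 and 5 equal, and 16 had at least 1 array above the limit. The number below 0 became 17 after median centring, 16 after quantile normalization and 15 after removal of a lowess trend, while the share of all genes below 0 went from 46.6% to 73.6%, 65.8% and 55.8%. LY6K had the lowest difference of the 30 family genes, and the next was LY6G5C at -0.45.

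LYPD6 and LYPD6B, next to each other on chromosome 2 among measured genes, had the largest differences of the family on the higher side. LYPD6, which is known to modulate nicotinic receptors and WNT signalling, went from 8.55 on BSA to 9.18 on rLCC111, or 1.55-fold. LYPD6B was at 8.30 and 8.86, a fold of 1.47. The third family gene of that chromosome, LYPD1, was at 10.37 and 10.66, a fold of 1.22. All of them stayed above 0 under each other scaling, LYPD1 at 0.21 or more.

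On chromosome 19, PLAUR, the urokinase receptor, had levels of 11.87 on BSA and 11.60 on rLCC111 and a fold of 0.830. LYPD3, a uPAR-like protein of epithelia and tumours known as C4.4A, was at 7.30 and 7.06, a fold of 0.848. The 8 family genes of this chromosome ran from -0.27 to 0.00, so none was higher on rLCC111 as deposited, where 8504 of all 18417 genes were. LYPD4 and TEX101 were equal on both arrays and lay below the limit, and nothing is read from the count. A second, dimmer sequence of CD177, a neutrophil surface protein, which lay below the limit on both arrays, gave a difference of -0.78, and the mean of both CD177 sequences one of -0.41.

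Among the 5 genes of the major histocompatibility region on chromosome 6, LY6G5C measured 7.05 on BSA and 6.60, just under the limit, on rLCC111, with a fold of 0.731. A second sequence of LY6G5C gave a difference of -0.68. The other genes there lay between -0.12 and 0.10. CD59, which blocks the complement pore and is expressed by most cells, measured 12.16 on BSA and 12.02 on rLCC111, with a fold of 0.911.

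Genes that act on or beside these proteins were taken as lists. Of 30 measured enzymes that build, attach or remodel the GPI anchor, none was 2-fold different, and the median was 0.04, or -0.04 after median centring. PIGZ, a mannosyltransferase, had a fold of 1.37, PGAP1, a remodelling enzyme, 1.27, and PIGA, a subunit of the enzyme of the first step, 0.802. Of 28 other GPI-anchored proteins, 1 was past 2-fold, the glypican GPC6 on the higher side, from 9.18 to 10.23, where 0.239% of all genes were. After median centring GPC6 had a difference of 0.97, under 2-fold. CD55, a complement regulator, had a fold of 0.748 and the placental-type phosphatase ALPG 1.14. The median of this list was 0.06, or -0.02 after median centring.

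Of 15 nicotinic acetylcholine receptor subunits, which are targets of SLURP1 and LYNX1, none was 2-fold different, and 8 were above the limit. The median was 0.03, or -0.05 after median centring, with CHRNA10 at a fold of 1.31, CHRNB1 at 1.10 and CHRNG at 0.901. CHRNA1 had the lowest difference, -0.64, but both of its values lay below the limit.

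LY6K is itself a cancer-testis antigen, and 30 other genes of that class were measured. None was 2-fold different. The median was -0.07, from -0.15 to -0.03 under other scalings and other choices of sequence, and 20 of the 30 were lower on rLCC111, where 46.6% of all genes were. Over the 17 above the limit on both arrays the median was -0.23, while all genes above it on both arrays had a median of 0.00. The 17 include genes of cell division, such as OIP5, and no median was taken without them. The list was not tested, so nothing is said of the class as a whole. PAGE1 measured 9.60 on BSA and 8.98 on rLCC111, with a fold of 0.653. OIP5, a centromere protein, had a fold of 0.755 and MAGEC1 0.761.

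**Figure D4:**
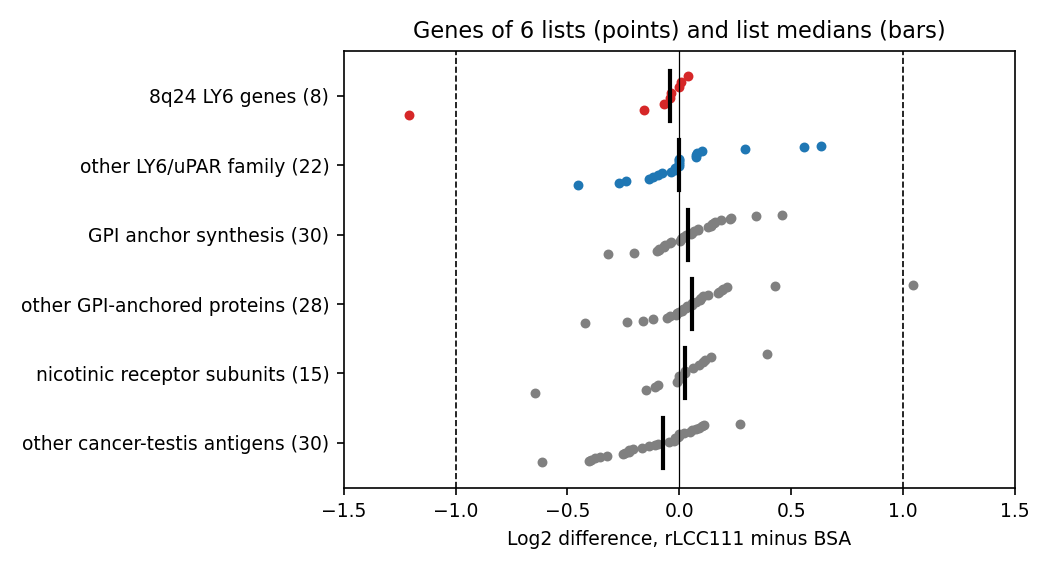
Log2 difference, rLCC111 minus BSA (horizontal), of each gene (points) of 6 lists, with the number of measured genes in parentheses, list medians as black bars and dashed lines at 2-fold; points are spread vertically by rank. LY6K, at -1.21, and GPC6, at 1.05, are the points past a dashed line.

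Marker lists were read on both arrays to check the labelled line. Of 16 mesenchymal markers 13 were above the limit on both arrays, with vimentin, VIM, at 13.05 on BSA and 12.98 on rLCC111, and none was 2-fold different (median 0.16, with TGFBI at a fold of 1.71, FN1 at 1.40 and COL1A1 at 1.28). Of 18 keratinocyte and epithelial markers 9 were above it on both arrays, namely KRT8, KRT18, KRT19, KRT13, KRT14, KRT15, KRT16, SFN and PERP. KRT4 was above it on rLCC111 only, and KRT1, KRT5, KRT10, IVL, DSG3, DSC3, EPCAM and CDH1 were below it on both arrays. The median was -0.02, with SFN at a fold of 0.813, KRT19 at 1.12 and KRT18 at 0.915. Of 14 germ cell markers 1 was above the limit, ACR with a fold of 0.928, and the median was 0.00. The ACR difference of -0.11 changed sign under other scalings or choices of sequence, to 0.22 at the highest.

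Of 11 leukocyte markers 4 were above it on both arrays. CD68 was at 11.52 on BSA and 11.41 on rLCC111, and PTPRC at 4.21 on each (median 0.00, CSF1R at a fold of 1.20, CD68 at 0.927 and CD79A at 0.981). Of 10 endothelial markers 1 was above it on both arrays, CLDN5 with a fold of 0.867, and ESAM had a fold of 0.712. The median of the 10 was 0.14, but it was -0.35 over CLDN5 and ESAM, the 2 with the brighter array above the limit. Of 11 neural markers 3 were above it on both arrays, with NEFL at 10.39 on BSA and 9.97 on rLCC111 (median 0.00, SNAP25 at a fold of 1.37, NEFL at 0.748 and RBFOX3 at 0.996). No marker on these lists was 2-fold different. In bulk RNA, fewer cells that express LY6K and less LY6K mRNA per cell cannot be told apart.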

How the data were processed

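Total RNA of HT1080 cells was hybridised to 1 GeneChip Human Gene 1.0 ST array per coating. The authors converted the scans with RMA in Affymetrix Expression Console, and the deposited log2 levels of 33297 sequences were used unscaled; RMA settings and the software version are not given in the sources used here. With 2 arrays the study's limma step leaves no residual degree of freedom, so it was not run. The number of arrays limits the precision.

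Sequences were named from the platform annotation: 19460 have 1 symbol, 1754 several and 12083 none. A gene was given by its 1-symbol sequence with the highest mean level, and each of the 8 LY6 genes has exactly 1 sequence. A gene counted as 2-fold different at a log2 difference of at least 1 in size. Named genes are the 8, those at least 2-fold different in each list, the 6 largest differences of the wider family and 3 of each other list above the limit, neighbours past 1.5-fold and those adjacent, and 5 genes most like LY6K. CCBE1, TMEM71, ATP6V0D2, SLC45A4, CHRNA1, CD59, CD177, LYNX1, GPIHBP1, TEX101 and the markers VIM and PTPRC were added after their values were seen. So were the keratinocyte markers other than SFN, KRT18 and KRT19. Members and lists were chosen with earlier results of these data known. Alternatives were median centring, quantile normalization, removal of a lowess trend (span 0.2, 3 iterations), the mean of a gene's sequences, and filters on level. Protein and promoter sequences of these genes were not used here. Python 3.11.15, numpy 2.4.6, pandas 2.3.3, statsmodels 0.14.6 and matplotlib 3.10.9 were used.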

Additional observations from a re-analysis of the deposited data

How the results depend on the processing

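LY6K differed by -1.29 to -1.19 log2 under the 4 other ways of scaling or choosing sequences, and was at least 2-fold lower under each. It lay 1.10 to 1.17 log2 below the median of the other 7 genes. The mean of sequences could not change these values, because each of the LY6 genes has 1 sequence. Median centring could not change the distance to the median, because it moves all genes alike. With median centring 25 genes in place of 16 were at least 2-fold lower and 0 in place of 1 of the other GPI-anchored proteins was at least 2-fold higher, since this moved every difference by -0.079. With both arrays above the limit 26 genes in place of 44 were at least 2-fold higher, because fewer genes are counted. The endothelial median went from 0.14 to -0.35 for the 2 genes whose brighter array was above the limit and to -0.21 for the 1 gene with both arrays above it. The limit was 6.10 at the 90th percentile and 7.54 at the 99th, where 4 in place of 7 of the LY6 genes were above it on both arrays. A change of under 0.18 log2, the SD of the differences across the sensory receptor genes, was taken as no change, since there are no replicates. It is a spread between genes on 1 pair of arrays and does not measure replicate error. No gene of like level was as low as LY6K among 200, 500 or 1000, which is a description, since LY6K was chosen with its difference known. No paired analysis was possible because there is 1 array per coating, and no array could be left out.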
